A study of Mus musculus with 6 samples.

Results

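Fasting and FOXO-responsive metabolic genes are a set of 10 genes whose transcripts rise in many tissues when insulin signalling is low, as after a night without food, together with FOXO factors that read that state. The members were Pdk4, Irs2, Lpin1, Txnip, Ddit4, Arrdc2, Cpt1a, Angptl4, Foxo1 and Foxo3, 10 of the 31253 genes in the deposited tables. They were followed in droplet single-cell RNA libraries of hippocampus from 6 elderly mice, 3 that breathed the volatile anaesthetic sevoflurane (2%, 6 h) and 3 given air (Control), with tissue taken 24 h later. Strain, sex, age in months and food intake are not given in the labels. The set was chosen by the Sevoflurane against Control differences in astrocytes and ependymal cells of these same libraries, where Pdk4, Irs2, Lpin1 or Arrdc2 were higher after sevoflurane. Values of the members and of related genes in astrocytes and ependymal cells are therefore given as a description, with no test. Tests were made in the other classes, which the choice did not use.

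When insulin or IGF1 binds its receptor, the adaptor IRS2 carries the signal to PI3 kinase and AKT, and AKT phosphorylates FOXO1 and FOXO3 so that they leave the nucleus. When insulin falls, FOXO factors re-enter the nucleus and raise genes that spare glucose and burn fat. PPAR alpha, which senses fatty acids, and the glucocorticoid receptor act on many of the same genes. Of the members, PDK4 phosphorylates and switches off the pyruvate dehydrogenase complex, CPT1A brings long-chain fatty acids into mitochondria, and LPIN1 makes diacylglycerol and acts as a coactivator of PPAR alpha. ANGPTL4 inhibits lipoprotein lipase. TXNIP and ARRDC2 are alpha-arrestins, of which TXNIP lowers glucose uptake, and DDIT4, also called REDD1, restrains mTORC1. In brain, astrocytes carry most of the fatty acid oxidation, ependymal cells line the ventricles, and endothelial cells pass glucose from blood to tissue.

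The libraries held 54426522 to 70741809 UMIs (unique molecular identifiers, each a captured transcript), and 46876 cells remained after filtering, 6645 to 8996 a library. The cells formed 36 clusters, of which 33 were named by markers in 11 classes. Names such as astrocytes are short for astrocyte-like cells. Of the classes, 7 had at least 20 cells in every library: neurons, astrocytes, oligodendrocytes, oligodendrocyte precursors, microglia, endothelial cells and ependymal cells. Astrocytes numbered 427, 733 and 758 in the Sevoflurane libraries and 698, 804 and 675 in the Control libraries, and ependymal cells numbered 89, 150 and 99 against 73, 82 and 50. Endothelial cells numbered 42, 117 and 168 against 160, 63 and 93. All 10 astrocyte markers and all 8 ependymal markers were found in at least 20% of the cells of their cluster. Sevoflurane 1 had 1398 CPM (UMIs of the gene scaled to a common library total) of Xist against 0.533 to 1.21 CPM in the other 5 libraries and so came from a female, whereas the others had male-specific transcripts. No choroid plexus cell was found in the Sevoflurane libraries, against 59, 5 and 97 cells in the Control libraries, and Ttr, a choroid plexus transcript, was at 2.28 to 2.67 CPM in Sevoflurane and 70.2 to 527 CPM in Control libraries. The part of these differences in the results below was not tested, and calls of named genes that change without Sevoflurane 1 are stated beside the result. Related genes in subclasses of neurons are an exception: their calls were not checked without a library. Counts of a class are sums over its cells. The labels give the number of mice but do not tie each library to an animal, and a p-value here reflects only how much the libraries vary, which may be technical.

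The members lie on 7 chromosomes of the mouse genome (GRCm38): Foxo1 (chr3:52268336-52353221) and Txnip (chr3:96557957-96561883), Pdk4 (chr6:5483351-5496309), Irs2 (chr8:10984681-11008458) and Arrdc2 (chr8:70835129-70839720), Foxo3 (chr10:42181841-42276755) and Ddit4 (chr10:59949669-59951834), Lpin1 (chr12:16535669-16610966), Angptl4 (chr17:33773750-33781830) and Cpt1a (chr19:3322334-3385733). Promoter sequence from RefSeq was matched for 9 of the 10 members. The 250 bases before the start are shown for Irs2, Lpin1 and Arrdc2, genes for which the set was put together, and for Txnip, whose window holds a forkhead element. Windows end at the RefSeq start, which for Irs2 lies 471 bases before the gene start of the positions above and for Cpt1a 967 bases inside that gene. Capitals mark the letters of a searched motif on either strand.

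Txnip, chr3:96557707-96557956, plus strand: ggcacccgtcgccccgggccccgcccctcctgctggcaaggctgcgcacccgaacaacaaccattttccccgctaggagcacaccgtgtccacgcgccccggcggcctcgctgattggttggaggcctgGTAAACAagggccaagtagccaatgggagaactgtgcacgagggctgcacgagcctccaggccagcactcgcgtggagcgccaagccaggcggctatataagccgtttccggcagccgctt
Irs2, chr8:11008930-11009179, minus strand: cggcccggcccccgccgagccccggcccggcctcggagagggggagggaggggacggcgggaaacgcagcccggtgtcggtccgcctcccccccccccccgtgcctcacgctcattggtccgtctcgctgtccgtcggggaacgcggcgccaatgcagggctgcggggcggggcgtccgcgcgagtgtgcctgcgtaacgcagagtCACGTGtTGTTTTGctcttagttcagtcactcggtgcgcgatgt
Arrdc2, chr8:70839721-70839970, minus strand: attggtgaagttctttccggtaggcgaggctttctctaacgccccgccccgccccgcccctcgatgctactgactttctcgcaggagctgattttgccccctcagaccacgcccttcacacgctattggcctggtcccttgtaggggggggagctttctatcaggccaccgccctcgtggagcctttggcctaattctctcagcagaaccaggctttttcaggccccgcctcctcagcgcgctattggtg
Lpin1, chr12:16610967-16611216, minus strand: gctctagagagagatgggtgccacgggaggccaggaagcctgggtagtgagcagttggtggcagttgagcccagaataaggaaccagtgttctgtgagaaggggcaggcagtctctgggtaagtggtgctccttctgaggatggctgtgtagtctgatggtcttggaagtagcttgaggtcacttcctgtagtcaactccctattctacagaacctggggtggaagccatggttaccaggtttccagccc

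In these windows the forkhead element GTAAACA was found for Txnip alone among the 9 members, 121 to 115 bases before the start, and 3.17% of all 32851 RefSeq windows of the same length hold it. The insulin response core CAAAACA, also read by FOXO factors, was found for Irs2 (37 to 31 bases before the start) and Cpt1a (219 to 213 bases before the start), on the minus strand of the window in both, and 5.56% of windows hold it. The E-box CACGTG stood 44 to 39 bases before the start of Irs2, beside the insulin response core and not overlapping it, and is found in 6.02% of windows. The cAMP response element TGACGTCA, the full palindromic glucocorticoid response element and the direct-repeat PPAR element were in none of the 9 windows, and in 1.55%, 0.00913% and 0.0335% of all windows. A match is a description of the letters in the window and not a measured site.

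In astrocytes, Pdk4, Arrdc2, Irs2, Txnip and Ddit4 were at 2.09 to 2.99 times their Control mean after sevoflurane and Lpin1 at 1.56 times, while Cpt1a, Foxo1 and Foxo3 differed less and the low Angptl4 levels overlapped. Levels are CPM with TMM factors and can be compared between libraries of a class, and differences are log2 fold changes of Sevoflurane over Control with their standard error (SE). In bulk sums of this kind, fewer cells that express a gene and less RNA per cell cannot be told apart.

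Pdk4 stood at 61.7, 74.9 and 65.3 CPM in Sevoflurane astrocytes and at 26.4, 26.6 and 25.3 CPM in Control astrocytes, 2.58 times the Control mean (log2 fold change 1.37, SE 0.15). The groups were far apart and the 3 Control libraries nearly equal. Arrdc2 stood at 49.4, 53.8 and 68.8 CPM in Sevoflurane and 18.7, 10.9 and 28.0 CPM in Control astrocytes, 2.99 times the Control mean and the largest log2 fold change of a member in astrocytes (1.64, SE 0.25). The lowest Sevoflurane library was well above the highest Control library. Irs2 stood at 71.6, 122 and 106 CPM against 53.7, 37.9 and 50.5 CPM (1.11, SE 0.19), with Sevoflurane 1 nearest to the Control range.

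Txnip was at 90.5, 58.2 and 54.7 CPM in Sevoflurane astrocytes and at 37.9, 19.0 and 35.7 CPM in Control astrocytes (log2 fold change 1.11, SE 0.24). Sevoflurane 1 was the highest and Control 2 the lowest library, and the groups did not overlap. Ddit4 was at 33.7, 41.9 and 41.7 CPM against 22.0, 14.9 and 19.2 CPM (1.09, SE 0.19), again without overlap. Lpin1 was at 62.6, 81.5 and 109 CPM against 58.5, 56.1 and 48.3 CPM (0.66, SE 0.18), where Sevoflurane 1 lay just above the Control libraries. Without Sevoflurane 1 the log2 fold change of Lpin1 was 0.81, past the threshold used in the other classes. These 3 genes also rest on moderate counts, with Ddit4 at 41 to 106 UMIs a library in Sevoflurane and 35 to 46 in Control.

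The other members differed less in astrocytes. Foxo3 was at 183, 198 and 227 CPM in Sevoflurane and 160, 147 and 178 CPM in Control astrocytes (log2 fold change 0.33, SE 0.13), without overlap. Foxo1 was at 220, 290 and 329 CPM against 240, 230 and 266 CPM (0.20, SE 0.15), with Sevoflurane 1 below all Control libraries. Cpt1a was at 48.6, 52.9 and 72.8 CPM against 58.9, 59.7 and 62.0 CPM (−0.03, SE 0.16), so that the Sevoflurane libraries lay on both sides of the Control libraries. Angptl4 was low in both groups, at 9.05, 11.0 and 3.54 CPM against 2.87, 5.24 and 4.39 CPM (0.84, SE 0.44), and the groups overlapped. All 10 members passed the filter on low counts in astrocytes. At the threshold used in the other classes, 5 of them (Pdk4, Irs2, Txnip, Ddit4 and Arrdc2) would be called higher and none lower, where 2% of all genes tested were called in either direction, and 7 had groups that did not overlap with Sevoflurane higher, against 9.15% of genes. Nothing is read from these counts, because this contrast chose the set. Without Control 2, whose Irs2, Txnip, Ddit4 and Arrdc2 levels were the lowest, the count was 2 (Pdk4 and Arrdc2). Txnip also fell short without Sevoflurane 2, without Control 3 and with doublets kept.

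**Figure D1:**
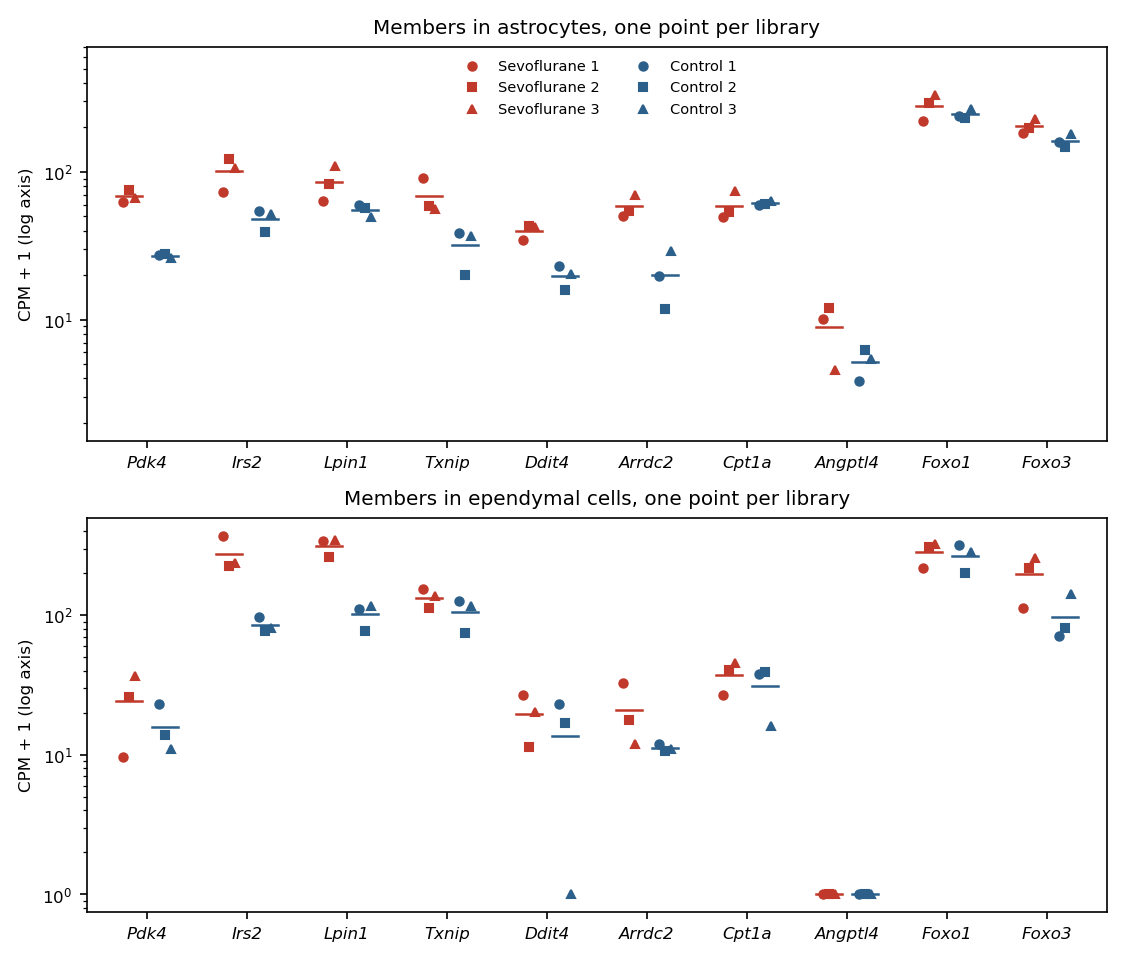
Level of each member in astrocytes (top) and ependymal cells (bottom), as CPM + 1 on a log axis, with a point per library and a bar at the group mean of 3 libraries. In astrocytes the Sevoflurane points of Pdk4, Arrdc2, Txnip, Ddit4 and Irs2 lie above all Control points, and in ependymal cells those of Irs2 and Lpin1 do so by the widest margin.

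The share of cells with a transcript was compared next. Each cell was thinned to 1000 UMIs, so that deeper cells do not detect more, and shallower cells were left out. Pdk4 was then found in 6.02%, 6.24% and 7.69% of Sevoflurane astrocytes (415, 721 and 741 cells) and in 2.04%, 1.40% and 2.26% of Control astrocytes (686, 785 and 663 cells). In neurons, which had little Pdk4, the same share was 0% to 0.126% in Sevoflurane and 0.0221% to 0.0783% in Control libraries, with deeper cells. Thinned shares for Arrdc2 were 5.30% to 8.37% in Sevoflurane and 1.15% to 2.26% in Control astrocytes, for Lpin1 7.21% to 12.1% against 4.22% to 4.71%, and for Irs2 6.02% to 11.5% against 3.18% to 5.69%. In astrocytes, thinned shares of 6 members were higher in every Sevoflurane than in every Control library, and those of 7 members at 2000 UMIs, the added one being Foxo3. At 1000 UMIs this also held for 3 members in oligodendrocytes, 2 in ependymal cells, 1 in oligodendrocyte precursors and 2 in neurons. In neurons 1 member was lower throughout. Nothing is read from these counts. The astrocyte and ependymal contrasts chose the set, and the share of all genes with such a pattern was not computed. Without thinning Pdk4 was found in 15.2% to 19.1% of Sevoflurane and 6.22% to 7.46% of Control astrocytes. No single astrocyte held more than 4.00% of the Pdk4 UMIs of its class in a Sevoflurane library or 4.55% in a Control library.

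**Figure D2:**
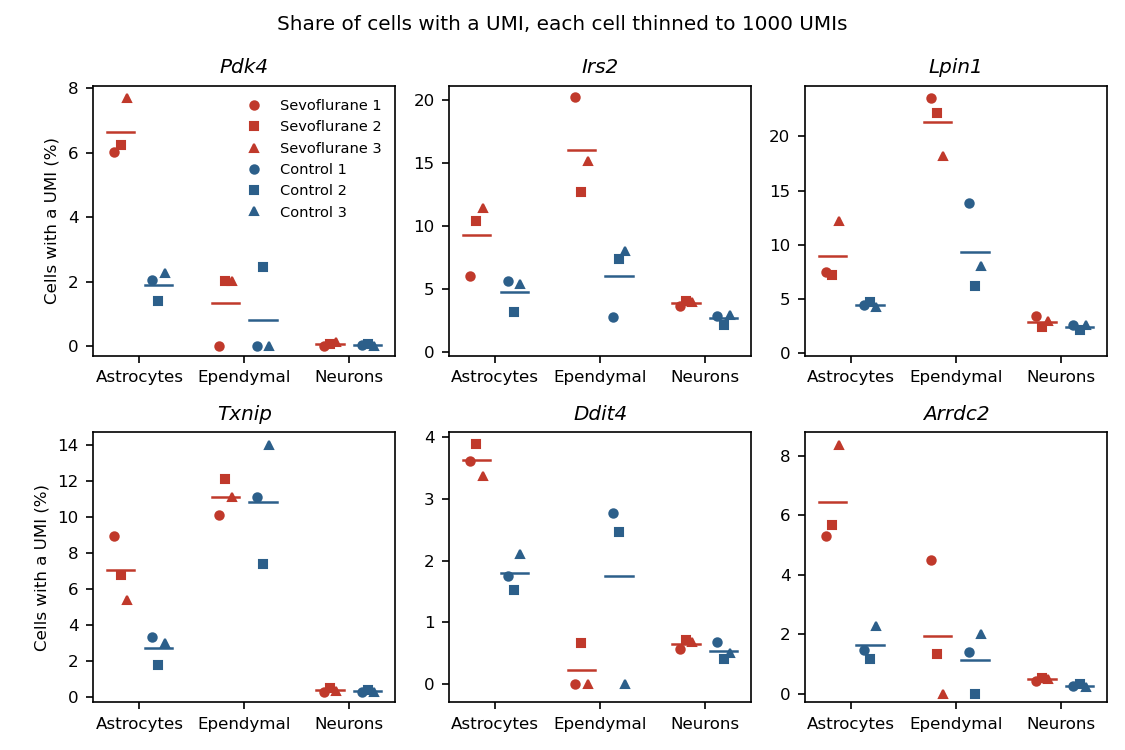
Percent of cells with at least 1 UMI of 6 members after each cell was thinned to 1000 UMIs, in astrocytes, ependymal cells and neurons, with a point per library and a bar at the mean. Astrocyte points of the Sevoflurane libraries lie above those of the Control libraries in all 6 panels, for Pdk4 at 6.02% to 7.69% against 1.40% to 2.26%, and neurons reach at most 0.126% for Pdk4.

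Ependymal cells gave another picture: the insulin adaptor Irs2 and the lipid phosphatase Lpin1 were well above Control after sevoflurane, and Pdk4 and Arrdc2 were low. Irs2 stood at 369, 224 and 235 CPM in Sevoflurane ependymal cells and 95.5, 76.6 and 79.8 CPM in Control ependymal cells (3.28 times the Control mean, log2 fold change 1.70, SE 0.25). Lpin1 stood at 337, 261 and 342 CPM against 110, 76.6 and 115 CPM (3.12 times, 1.65, SE 0.22). For both genes every Sevoflurane library lay far above every Control library, with 85 to 128 UMIs of Irs2 a library in Sevoflurane and 16 to 26 in Control. Foxo3 stood at 112, 217 and 257 CPM against 69.8, 79.8 and 140 CPM (1.07, SE 0.29), and the groups overlapped through Sevoflurane 1 and Control 3. Without Sevoflurane 1 the log2 fold change of Foxo3 was 1.34, and without Control 3 it was 1.38, both past the threshold.

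Txnip, Foxo1 and Cpt1a differed little in ependymal cells, with log2 fold changes of 0.36 (SE 0.25), 0.10 (SE 0.21) and 0.23 (SE 0.40) and overlapping groups. Pdk4, Ddit4, Arrdc2 and Angptl4 did not pass the filter on low counts, with 3 to 13 UMIs of Pdk4 a library in Sevoflurane and 2 to 6 in Control, and no UMI of Angptl4 in any library. Of the 6 members that passed, 2 would be called higher (0.613% of all genes tested in ependymal cells were called in either direction) and 2 had groups that did not overlap with Sevoflurane higher (7.27% of genes). Nothing is read from these counts either, because this contrast also chose the set. The thinned share of cells with Lpin1 was 23.6%, 22.1% and 18.2% in Sevoflurane and 13.9%, 6.17% and 8% in Control ependymal cells.

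Other genes differed beside the members. In ependymal cells, of the dissociation stress list, immediate early genes that respond within minutes to handling, 3 of 7 measured genes stood past the same threshold and higher, and its median log2 fold change was 1.52 against 0.005 over all genes. The 3 were Fos, Egr1 and Nr4a1, none of which stood past the threshold without Control 2, and DESeq2 called 1 of the 7. Egr1 was at 158, 111 and 105 CPM in Sevoflurane and 47.8, 31.9 and 34.9 CPM in Control ependymal cells, and Fos at 121, 39.7 and 30.3 CPM against 7.35, 3.19 and 14.97 CPM. In astrocytes the dissociation stress list had a median log2 fold change of 0.49 and the glucocorticoid-responsive list one of 0.52, against 0.01 over all genes. There 3 of 8 and 10 of 15 genes had an unadjusted p under 0.05, where 14.7% of all genes had. Nothing is read from the list counts in ependymal cells or astrocytes, because these contrasts chose the set. Summed choroid plexus markers (10 genes) were at 146 to 204 CPM in Sevoflurane and 281 to 978 CPM in Control ependymal cells, and at 19.7 to 35.3 CPM against 174 to 1057 CPM in astrocytes. Summed ependymal markers were at 37.9 to 49.6 CPM in Sevoflurane and 27.8 to 37.5 CPM in Control astrocytes, and none of the 8 was at 0. The 10 astrocyte markers themselves summed to 10112 to 12512 CPM in Sevoflurane and 12828 to 13328 CPM in Control astrocytes. The part of these levels in the differences of the members was not tested.

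Outside the 2 classes that chose the set, no member passed the test in any of 5 classes or 4 neuron subclasses. The test was edgeR's quasi-likelihood test with Benjamini-Hochberg (BH) adjustment across every gene fitted in that class, and calls were made below 0.05. In neurons 0 of 9 members that passed the filter were called (3.71% of all genes were), in oligodendrocytes 0 of 9 (0.53%), in oligodendrocyte precursors 0 of 5 (0.778%), in microglia 0 of 7 (0.334%) and in endothelial cells 0 of 7 (2.3%). At an unadjusted p under 0.05, 2, 2, 0, 1 and 0 members passed in these classes, where 20.6%, 13.5%, 11.7%, 9.27% and 13.1% of all genes did, and DESeq2 called 1, 0, 0, 0 and 0 members. DESeq2 set no adjusted p for any member past the filter in precursors, and in microglia for Foxo3 only. Its counts of 0 in these 2 classes are therefore no second test. Some members in other classes also had no adjusted p from DESeq2. In dentate granule, CA1 pyramidal, CA3 pyramidal and inhibitory neurons 0 of 9, 0 of 8, 0 of 7 and 0 of 7 members were called, where 3.56%, 0.243%, 0.414% and 7.16% of all genes were. There, 2, 2, 0 and 1 members had an unadjusted p under 0.05 (18.7%, 16.2%, 13.8% and 20.8% of all genes), and DESeq2 called 0, 1, 0 and 0. The CA1 pyramidal class of 10124 cells was mixed, with clusters of 1372, 1778, 63 and 1152 cells that had Tshz2 among their leading genes. The inhibitory class of 3433 cells included a cluster of 525 cells with Zfhx3 among its leading genes. Clusters were not set in equal numbers within a subclass, and the part of their make-up in the subclass values was not tested.

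**Figure D3:**
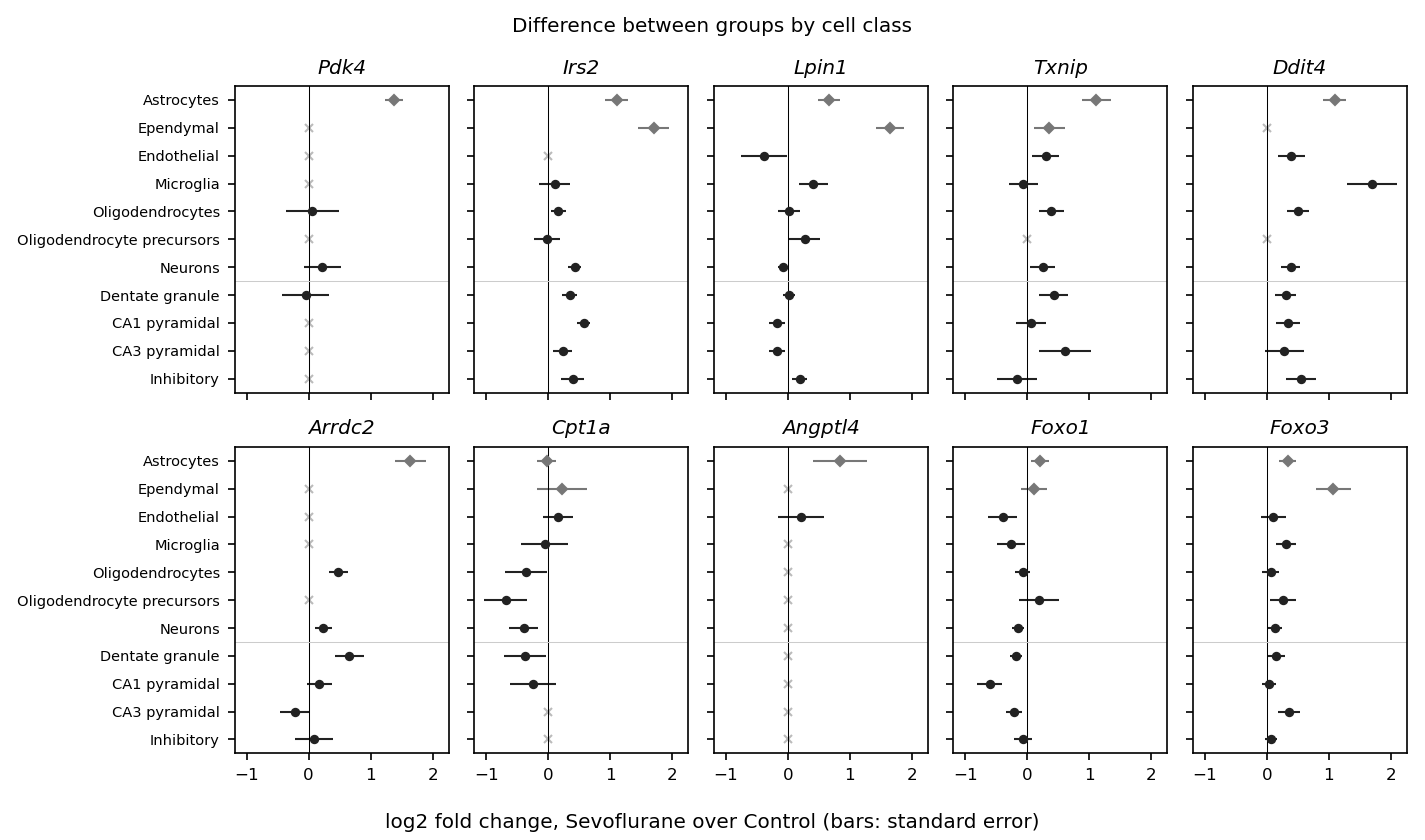
Log2 fold change of each member, Sevoflurane over Control, with its standard error as a bar, in 7 cell classes and, below the line, 4 neuron subclasses. Grey diamonds are astrocytes and ependymal cells, whose values chose the set, and crosses at 0 mark classes where the gene did not pass the filter on low counts. Irs2 lies at 1.70 in ependymal cells and 1.11 in astrocytes, and at 0.43 in neurons.

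Irs2 came nearest to the threshold in neurons. It stood at 34.5, 40.2 and 34.7 CPM in Sevoflurane neurons and at 29.5, 23.4 and 28.4 CPM in Control neurons, from 1868 to 1976 UMIs a library in Sevoflurane and 1167 to 1203 in Control. The groups did not overlap, with Control 2 the lowest library, and Irs2 was the only member with that pattern in neurons, where 12.9% of all genes had it. The log2 fold change was 0.43 (SE 0.10, edgeR BH-adjusted p = 0.0646), while DESeq2 gave an adjusted p of 0.00723. In CA1 pyramidal neurons Irs2 was at 33.7, 40.2 and 33.5 CPM in Sevoflurane and 25.6, 21.8 and 24.6 CPM in Control libraries (0.58, SE 0.10, edgeR adjusted p = 0.0679, DESeq2 0.0018). It was the only member there without overlap and with Sevoflurane higher (10.6% of genes). Its log2 fold change was 0.34 (SE 0.13, edgeR adjusted p = 0.189) in dentate granule, 0.23 (SE 0.15, 0.535) in CA3 pyramidal and 0.39 (SE 0.19, 0.266) in inhibitory neurons. In inhibitory neurons it passed without Sevoflurane 1, at 0.58 with an edgeR adjusted p of 0.0392.

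In oligodendrocytes, their precursors and microglia the Irs2 levels of the groups overlapped. Irs2 was at 77.9, 87.8 and 93.6 CPM in Sevoflurane oligodendrocytes and 77.8, 72.6 and 81.3 CPM in Control oligodendrocytes (log2 fold change 0.16, SE 0.12, edgeR adjusted p = 0.586). It was at 50.1 to 53.7 CPM against 48.1 to 61.0 CPM in oligodendrocyte precursors (−0.02, SE 0.21, adjusted p = 0.987), and at 58.0 to 67.1 CPM against 36.7 to 74.7 CPM in microglia (0.10, SE 0.25, adjusted p = 0.95). The effect on Irs2 in oligodendrocytes minus that in neurons was −0.24 (SE 0.12, edgeR interaction adjusted p = 0.579). None of the 9 members tested was called in the interaction of oligodendrocytes with neurons (0.573% of genes were), and none of 10 in that of endothelial cells with neurons (1.29%), with 0 members at an unadjusted p under 0.05 in either. Of the 10, Pdk4, Irs2 and Arrdc2 had not passed the filter in endothelial cells alone, and Angptl4 had not in neurons alone. Their counts were low in 1 of the 2 classes, so nothing is read from the missing calls of these genes. DESeq2 was not run on the interactions.

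Ddit4, which restrains mTORC1 and is raised by glucocorticoids and low oxygen, had its largest difference in microglia. It stood at 31.3, 46.0 and 58.0 CPM in Sevoflurane microglia and 24.9, 8.34 and 7.86 CPM in Control microglia (log2 fold change 1.70, SE 0.40, edgeR adjusted p = 0.0885). The groups did not overlap, and the counts were small, 19 to 34 UMIs a library in Sevoflurane and 3 to 12 in Control. The adjusted p was 0.0231 without Sevoflurane 1 and 0.0342 without Control 1. In the same sums the 7 border macrophage markers were at 6.59 to 237 CPM in Sevoflurane and 529 to 699 CPM in Control libraries, and the 4 neutrophil markers, 2 of them at 0 throughout, at 274 to 452 CPM against 492 to 584 CPM. Their part in the Ddit4 difference was not tested.

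In oligodendrocytes Ddit4 was at 45.9, 46.8 and 66.1 CPM in Sevoflurane and 39.4, 30.8 and 42.3 CPM in Control libraries, without overlap (log2 fold change 0.51, SE 0.18, edgeR adjusted p = 0.252). It was the only member there without overlap and with Sevoflurane higher, as 8.28% of genes were. In endothelial cells, where its level was highest, it was at 140, 178 and 191 CPM against 139, 99.1 and 155 CPM (0.40, SE 0.21, adjusted p = 0.459), and the groups overlapped. In neurons the log2 fold change of Ddit4 was 0.38 (SE 0.15, adjusted p = 0.207), and in inhibitory neurons Ddit4 and Lpin1 were the 2 members of the 7 past the filter without overlap and with Sevoflurane higher (12.1% of genes). Besides Ddit4, Lpin1 and Foxo3 had microglial groups that did not overlap with Sevoflurane higher (3 members of 7, against 6.5% of genes). Lpin1 was at 70.9, 61.3 and 61.4 CPM against 39.4, 53.4 and 52.4 CPM (0.41, SE 0.24, edgeR adjusted p = 0.642), and Foxo3 at 203, 220 and 244 CPM against 193, 173 and 170 CPM (0.31, SE 0.16, edgeR adjusted p = 0.585).

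The alpha-arrestins did not pass the test in these classes. Arrdc2, highest in oligodendrocytes, was at 160, 125 and 185 CPM in Sevoflurane oligodendrocytes and at 129, 94.7 and 115 CPM in Control oligodendrocytes (log2 fold change 0.48, SE 0.16, edgeR adjusted p = 0.219), with Sevoflurane 2 inside the Control range. In dentate granule neurons Arrdc2 was at 4.50, 3.84 and 3.84 CPM against 2.38, 3.29 and 1.91 CPM, without overlap (0.66, SE 0.23, adjusted p = 0.168). Irs2 and Arrdc2 were the 2 members without overlap and with Sevoflurane higher in dentate granule neurons (11.8% of genes). Txnip was at 312, 292 and 416 CPM in Sevoflurane endothelial cells and 198, 347 and 310 CPM in Control endothelial cells (0.29, SE 0.23, adjusted p = 0.653), with wide overlap. In neurons Txnip was at 1.93 to 3.21 CPM over the 6 libraries (0.25, SE 0.20, adjusted p = 0.535).

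Pdk4 outside astrocytes showed no common direction. In oligodendrocytes, its other main site, it was at 14.5, 44.3 and 86.6 CPM in the Sevoflurane libraries and at 45.1, 48.4 and 43.9 CPM in the Control libraries (log2 fold change 0.06, SE 0.43, edgeR adjusted p = 0.966). The Sevoflurane libraries lay far apart on both sides of 3 nearly equal Control libraries, with Sevoflurane 1 lowest and Sevoflurane 3 highest. The log2 fold change of Pdk4 was −0.71 without Sevoflurane 3 and 0.52 without Sevoflurane 1. In neurons Pdk4 was below 1 CPM in every library.

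No difference of the lipid members passed the test outside the 2 classes. Cpt1a was lower in every Sevoflurane than in every Control library in oligodendrocyte precursors, at 15.4, 13.4 and 9.71 CPM against 21.9, 18.2 and 23.6 CPM (log2 fold change −0.69, SE 0.35, edgeR adjusted p = 0.461). It was the only member with that pattern there, which 9.24% of genes had. In endothelial cells Cpt1a was at 114, 109 and 115 CPM against 93.1, 142 and 73.4 CPM (0.16, SE 0.24, adjusted p = 0.856). Angptl4 was at 15.6, 25.1 and 36.6 CPM in Sevoflurane and 19.2, 31.0 and 28.9 CPM in Control endothelial cells (0.21, SE 0.38, adjusted p = 0.897). Lpin1 in neurons was at 24.8, 22.6 and 28.7 CPM against 26.0, 26.5 and 27.5 CPM (−0.07, SE 0.09, adjusted p = 0.71).

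The FOXO genes did not pass the test in any class tested. Foxo1 was at 41.3, 45.3 and 52.1 CPM in Sevoflurane neurons and 50.9, 55.5 and 48.0 CPM in Control neurons (log2 fold change −0.16, SE 0.10, edgeR adjusted p = 0.401). In CA1 pyramidal neurons it was at 14.1, 10.9 and 20.1 CPM against 23.2, 19.9 and 26.2 CPM, with Sevoflurane 3 just inside the Control range (−0.61, SE 0.21, edgeR adjusted p = 0.21, DESeq2 0.0549). Foxo3 was at 40.4, 49.0 and 58.3 CPM against 48.1, 44.2 and 42.9 CPM in neurons (0.13, SE 0.12, adjusted p = 0.613).

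Across the 7 classes the members had different sites of highest level. Means ± SD over 3 libraries follow, as CPM within a class. Pdk4 was highest in astrocytes of the Sevoflurane libraries (67.3 ± 6.82 CPM), followed by oligodendrocytes (48.5 ± 36.3 CPM, overlapping) and ependymal cells (23.2 ± 13.7 CPM). In the Control libraries oligodendrocytes came first (45.8 ± 2.33 CPM) and astrocytes next (26.1 ± 0.72 CPM) with no overlap, ahead of ependymal cells (14.9 ± 6.32 CPM). Microglia, endothelial cells, precursors and neurons averaged below 5 CPM in both groups. Choroid plexus cells, counted in Control libraries only, had 17.5 and 19.2 CPM in the 2 libraries with at least 20 of them.

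Irs2 and Lpin1 shared ependymal cells as their highest class. Irs2 was at 276 ± 80.7 CPM in Sevoflurane and 84.0 ± 10.1 CPM in Control ependymal cells. Next in the Sevoflurane libraries were astrocytes (99.7 ± 25.6 CPM) and oligodendrocytes (86.4 ± 7.95 CPM), which overlapped each other. In the Control libraries the order was ependymal cells, oligodendrocytes (77.2 ± 4.37 CPM), microglia, precursors and astrocytes (47.4 ± 8.33 CPM), each overlapping the next. Lpin1 was at 313 ± 45.3 CPM in Sevoflurane and 101 ± 20.8 CPM in Control ependymal cells, above astrocytes (84.5 ± 23.5 CPM against 54.3 ± 5.30 CPM) without overlap in either group.

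Of the 7 classes, endothelial cells were the highest for Txnip, Ddit4, Cpt1a and Angptl4. Txnip was at 340 ± 66.9 CPM in Sevoflurane and 285 ± 77.4 CPM in Control endothelial cells, clear of ependymal cells (133 ± 21.01 CPM against 104 ± 27.3 CPM) in both groups. Ddit4 was at 170 ± 26.4 CPM against 131 ± 28.7 CPM there, above oligodendrocytes (52.9 ± 11.4 CPM against 37.5 ± 6.00 CPM). Cpt1a was at 113 ± 3.16 CPM against 103 ± 35.6 CPM, and astrocytes followed at 58.1 ± 12.9 CPM against 60.2 ± 1.62 CPM. Angptl4 was at 25.7 ± 10.5 CPM against 26.4 ± 6.27 CPM, followed by astrocytes at 7.87 ± 3.88 CPM against 4.17 ± 1.2 CPM. The endothelial class also held pericyte transcripts, with 8 summed pericyte markers at 4972 to 5586 CPM in Sevoflurane and 4919 to 7267 CPM in Control libraries, and Hbb-bs, a haemoglobin gene, among its 10 leading genes.

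Arrdc2 was highest in oligodendrocytes (157 ± 30.3 CPM in Sevoflurane, 113 ± 17.4 CPM in Control), with astrocytes next. Foxo1 was high in ependymal cells (283 ± 58.2 CPM against 266 ± 61.1 CPM) and astrocytes (280 ± 55.5 CPM against 245 ± 18.9 CPM), which overlapped in both groups, and lower in endothelial cells (141 ± 49.6 CPM against 182 ± 19.4 CPM). Foxo3 was highest in microglia (222 ± 20.7 CPM against 179 ± 12.3 CPM), overlapping astrocytes (203 ± 22.7 CPM against 162 ± 15.7 CPM). For all 10 members the highest of the 7 classes was not neurons, and neurons held the lowest level of Pdk4, Txnip, Ddit4, Arrdc2, Cpt1a and Foxo3 in both groups.

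**Figure D4:**
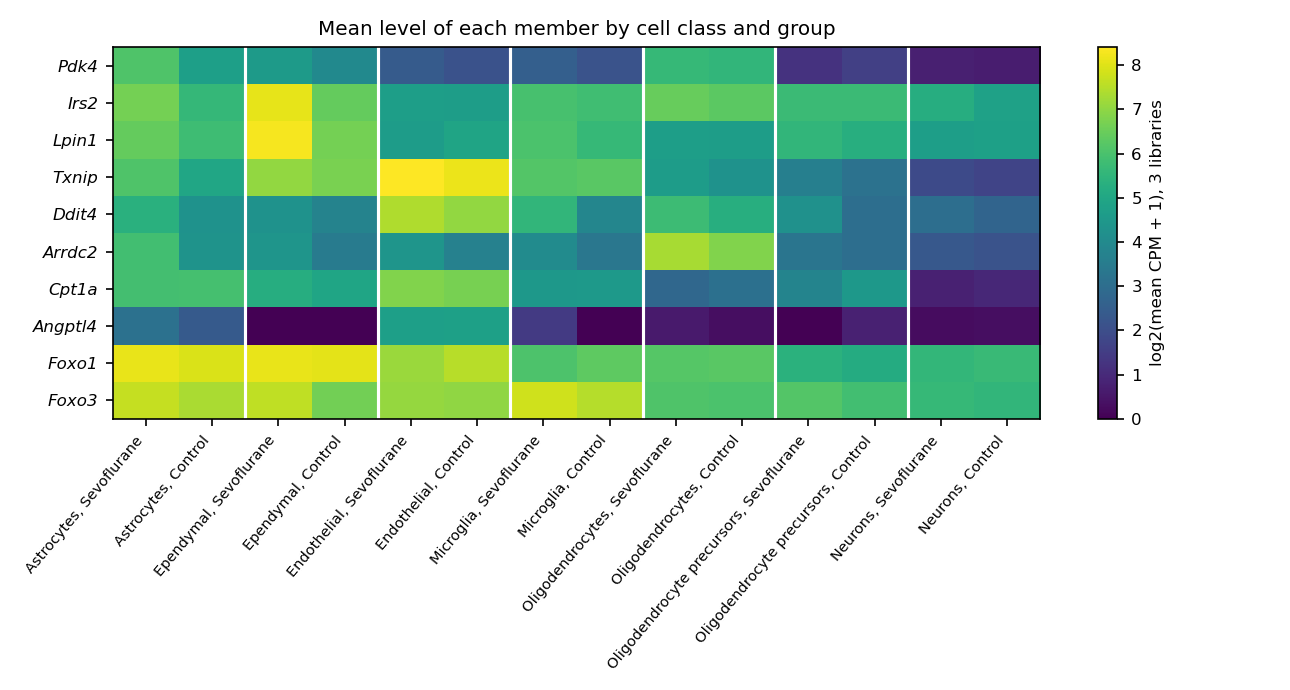
Mean level of each member by cell class and group, as log2(mean CPM + 1) over 3 libraries, Sevoflurane left of Control within each class. Irs2 and Lpin1 are brightest in Sevoflurane ependymal cells (276 and 313 CPM), Txnip, Ddit4, Cpt1a and Angptl4 in endothelial cells, and Arrdc2 in oligodendrocytes.

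The genes whose levels ran most like those of a member were sought over 42 sums of a library and a class, by Pearson's r of log2(CPM + 1). The sums share libraries and classes, so r mostly follows class, and it is given as a description. Arrdc2 ran with Arrdc3 (r = 0.89), another alpha-arrestin, and with Cdc37l1 and Slc48a1. Irs2 and Lpin1 both had Usp2 among their 3 (r = 0.84 and 0.88), beside Gm12326 and Exoc1 for Irs2 and Ccdc146 (r = 0.89) and Ttll3 for Lpin1. Pdk4 ran with Fam214a (r = 0.86), Clmn and Rhou, and Ddit4 with Pim3 (r = 0.86), Uba1 and Tm9sf3. Txnip ran with Sparc (r = 0.95), Laptm4a and Smad4, Cpt1a with Pdlim5 (r = 0.94), Sparcl1 and Bag3, and Angptl4 with Sox7 (r = 0.93), an endothelial transcription factor, Atp13a5 and Osmr. Foxo1 ran with Bcar3 (r = 0.91), Slc25a33 and Ezr, and Foxo3 with Irak2 (r = 0.90), Fam168b and Gna13.

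Genes upstream of the members were counted from lists. In the insulin, PI3K and AKT list (22 genes), the receptor Igf1r, which signals through IRS2, fell in several classes. In neurons it was at 159.8, 171 and 172 CPM in Sevoflurane and 220.2, 221 and 208 CPM in Control libraries (log2 fold change −0.37, SE 0.06, edgeR adjusted p = 0.0191). It fell in dentate granule (−0.37, SE 0.06, adjusted p = 0.0165), CA3 pyramidal (−0.37, SE 0.06, 0.0486) and inhibitory neurons (−0.41, SE 0.09, 0.0174), and in CA1 pyramidal neurons the fold was −0.32 (SE 0.08, adjusted p = 0.133). In endothelial cells, where it was most abundant, Igf1r fell to 2099, 2218 and 2518 CPM in Sevoflurane, against 4072, 3547 and 3518 CPM in Control libraries (−0.70, SE 0.17, adjusted p = 0.0351). In oligodendrocytes it was at 219, 227 and 211 CPM against 302, 317 and 297 CPM (−0.48, SE 0.10, adjusted p = 0.0683). In microglia and astrocytes it lay the other way, with log2 fold changes of 0.32 (SE 0.14, edgeR adjusted p = 0.516) and, as a description, 0.29 (SE 0.13). The calls of Igf1r were near the threshold. Removing a trend with the genomic span of genes gave −0.20 in neurons (adjusted p = 0.0808), leaving out Control 1, 2 or 3 gave adjusted p of 0.0638 to 0.0823 in neurons, and leaving out any library but Control 2 gave 0.0516 to 0.153 in endothelial cells. No other gene of the list passed in neurons (1 of 21 tested) or endothelial cells (1 of 16), while in inhibitory neurons Irs1, the sister adaptor of Irs2, also fell (39.1, 40.1 and 39.6 CPM against 49.8, 50.3 and 54.0 CPM, −0.37, SE 0.09, adjusted p = 0.0362). Of all genes, 3.71%, 2.3% and 7.16% were called in these 3 classes. In neurons 9 of the 21 had an unadjusted edgeR p under 0.05 (20.6% of all genes), and DESeq2 called 4. In endothelial cells 2 of the 16 had such a p (13.1% of all genes), and DESeq2 called 1.

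**Figure D5:**
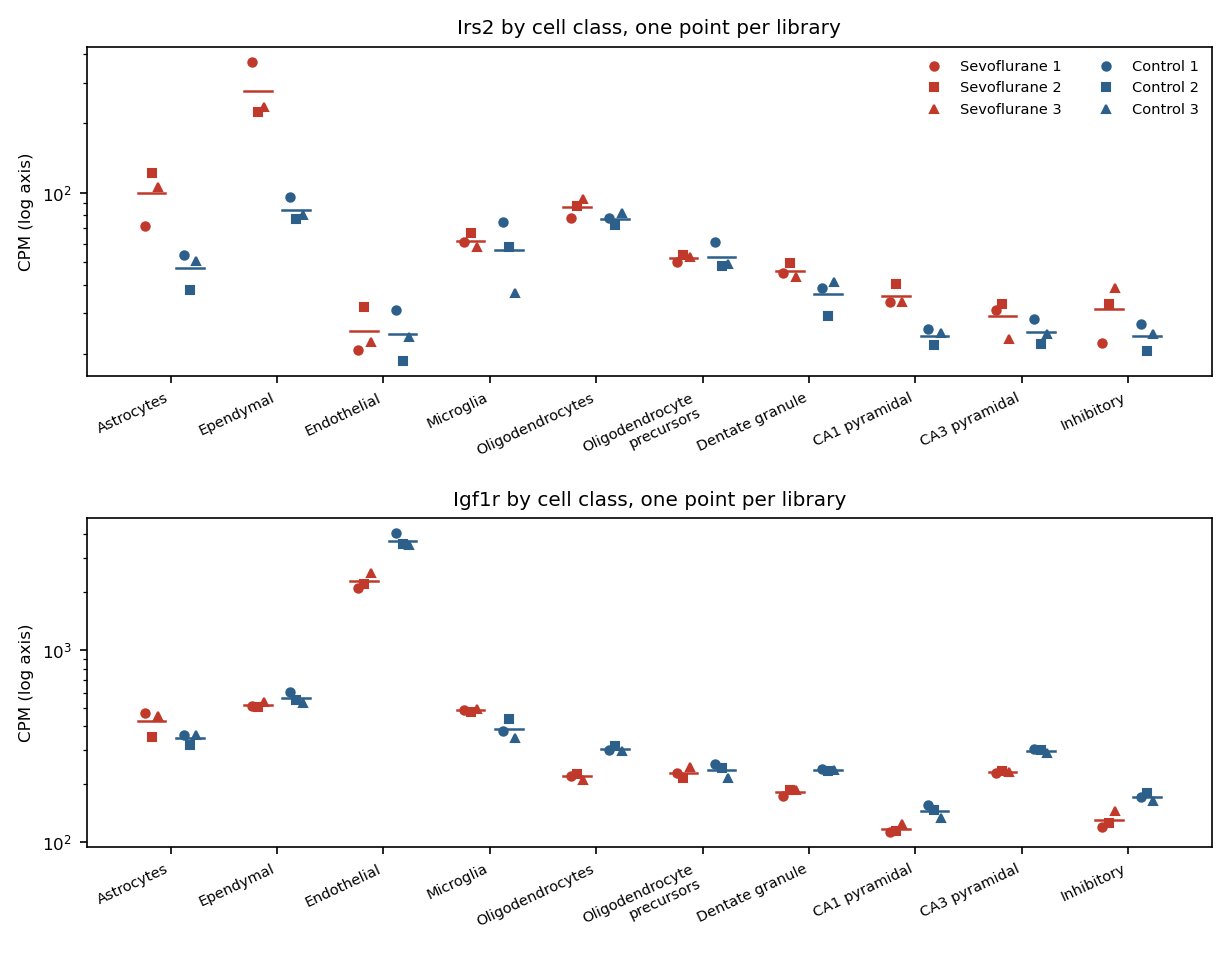
Level of Irs2 (top) and of Igf1r (bottom) by cell class and neuron subclass, as CPM on a log axis, with a point per library and a bar at the mean. Irs2 stands apart between groups in ependymal cells, astrocytes and CA1 pyramidal neurons, and the Igf1r points of the Sevoflurane libraries lie below those of the Control libraries in endothelial cells (2099 to 2518 against 3518 to 4072 CPM), oligodendrocytes and all 4 neuron subclasses.

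Other FOXO targets (22 genes) gave no call in the classes tested. With edgeR, 0 of 21 tested passed in neurons, 0 of 19 in oligodendrocytes, 0 of 15 in precursors, 0 of 16 in microglia and 0 of 17 in endothelial cells. At an unadjusted p under 0.05 there were 5, 3, 1, 1 and 2 of them, to be read against the shares of all genes given for the members, and DESeq2 called 1, 0, 0, 0 and 0. As a description, 1 of 18 stood past the threshold in astrocytes: Sesn3, which restrains mTORC1, at 369, 264 and 240 CPM in Sevoflurane and 156, 130 and 148 CPM in Control libraries (log2 fold change 1.00, SE 0.16). The median of the list in astrocytes was 0.22, against 0.01 over all genes, and 7 of the 18 had an unadjusted p under 0.05 (14.7% of all genes). Nothing is read from these values, because this contrast chose the set. In ependymal cells 0 of 12 stood past the threshold. Without Control 2, Sesn3 fell short of it.

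The PPAR alpha fasting list (23 genes of fasting metabolism, mostly fatty acid oxidation) gave no call with edgeR in the 5 tested classes. There 3 of 22 genes in neurons, 1 of 17 in oligodendrocytes, 3 of 11 in precursors, 2 of 9 in microglia and 2 of 13 in endothelial cells had an unadjusted p under 0.05. Of all genes, 20.6%, 13.5%, 11.7%, 9.27% and 13.1% had one, in the same order. DESeq2 called 1 gene of the list, in neurons. Of the pyruvate dehydrogenase list (12 genes, the other PDK kinases, the phosphatases and the complex itself), none stood past the threshold in any of the 7 classes, with 12 measured in astrocytes and a median log2 fold change of 0.14 there. In neurons, oligodendrocytes, precursors, microglia and endothelial cells edgeR gave 1 of 12, 2 of 12, 0 of 11, 1 of 11 and 0 of 8 an unadjusted p under 0.05. These counts are to be read against the same shares of all genes, and DESeq2 called 0.

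Of the lipin and lipase partners (13 genes), Dgat2, which makes triglyceride from diacylglycerol, rose in neurons to 33.7, 33.8 and 35.7 CPM in Sevoflurane, against 24.5, 27.2 and 27.8 CPM in Control libraries (log2 fold change 0.38, SE 0.07, edgeR adjusted p = 0.0329), and in inhibitory neurons (1.05, SE 0.18, adjusted p = 0.00429). Leaving out any 1 library ended the neuronal call of Dgat2, with edgeR adjusted p of 0.0605 to 0.109. Pnpla2, the triglyceride lipase ATGL, stood at 37.0, 33.0 and 31.1 CPM in Sevoflurane and 19.2, 10.9 and 20.3 CPM in Control astrocytes, a description (1.01, SE 0.22) that fell short of the threshold without Sevoflurane 2, Control 1 or Control 2.

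In the list of alpha-arrestins, thioredoxin and glucose uptake (13 genes), Slc2a1 rose in endothelial cells. This gene encodes GLUT1, the glucose carrier of the blood-brain barrier. It stood at 3871, 3034 and 3241 CPM in Sevoflurane and 1847, 2233 and 2051 CPM in Control endothelial cells (log2 fold change 0.73, SE 0.17, edgeR adjusted p = 0.0347), the only 1 of 7 measured genes of the list to pass. Of all genes, 2.3% were called in endothelial cells. The call of Slc2a1 was lost without any 1 library other than Control 2 (edgeR adjusted p of 0.0631 to 0.151). Txnip, which lowers glucose uptake, did not pass in the same cells.

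The glucocorticoid-responsive list (15 genes) was counted because that hormone also acts on several members. In endothelial cells 4 genes rose and 1 fell of 15 tested, with a list median of 0.65 against 0.003 over all genes. In these cells 2.3% of all genes were called in either direction. Cdkn1a rose to 629, 376 and 418 CPM in Sevoflurane, against 154, 158 and 194 CPM in Control libraries (log2 fold change 1.47, SE 0.22, edgeR adjusted p = 0.00215). Mt2, a metallothionein, rose to 317, 223 and 361 CPM against 102, 121 and 157 CPM (1.27, SE 0.23, adjusted p = 0.00592), and the kinase Sgk1 to 322, 217 and 163 CPM against 91.7, 99.1 and 99.7 CPM (1.202, SE 0.24, adjusted p = 0.0118). The mineralocorticoid receptor Nr3c2 fell to 135, 144 and 199.7 CPM against 328, 263 and 286 CPM (−0.84, SE 0.20, adjusted p = 0.0362). Metallothionein genes are near copies of each other, so their counts are uncertain. Without Control 1 the adjusted p was 0.0546 for Mt2 and 0.0678 for Sgk1, and without Control 3 it was 0.0507 for Sgk1. Nr3c2 lost its call without Sevoflurane 1, Sevoflurane 2, Control 1 or Control 3 (edgeR adjusted p of 0.0816 to 0.202). In neurons 1 of 15 passed (Cdkn1a, 1.02, SE 0.21, adjusted p = 0.0436, at 2.08 to 2.99 CPM in Sevoflurane and 1.00 to 1.49 CPM in Control neurons), and the call of Cdkn1a there was lost without any 1 library other than Sevoflurane 1 (edgeR adjusted p of 0.0871 to 0.144). Of all genes, 3.71% were called in neurons. In neurons, oligodendrocytes, precursors, microglia and endothelial cells, 9 of 15, 8 of 14, 4 of 11, 3 of 11 and 8 of 15 genes had an unadjusted edgeR p under 0.05. Of all genes, 20.6%, 13.5%, 11.7%, 9.27% and 13.1% did, and DESeq2 called 8, 2, 0, 0 and 5 genes of the list. In astrocytes, as a description, Map3k6 was at 6.59, 18.1 and 18.5 CPM against 2.87, 2.82 and 3.84 CPM (2.27, SE 0.39) and Arl4d at 17.3, 16.7 and 20.8 CPM against 6.71, 3.23 and 5.49 CPM (1.86, SE 0.30), and Map3k6 fell short of the threshold without Control 2. In ependymal cells, also as a description, Dusp1, a phosphatase that switches off MAP kinases, was at 184, 54.3 and 57.9 CPM in Sevoflurane and 18.4, 19.2 and 19.96 CPM in Control libraries (2.31, SE 0.48). Without Sevoflurane 1 the log2 fold change of Dusp1 was 1.54, and it fell short of the threshold there, without Control 1, without Control 2 and with doublets kept.

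In neuron subclasses, where clusters were not set in equal numbers, the same list split. It had 14 genes tested in inhibitory and 15 in dentate granule neurons, where 7.16% and 3.56% of all genes were called in either direction. In inhibitory neurons Per1, a clock gene, rose (log2 fold change 0.79, SE 0.13, edgeR adjusted p = 0.00331) and Klf9 rose (0.55, SE 0.14, adjusted p = 0.035), while Zbtb16 fell (−0.66, SE 0.09, adjusted p = 0.0015) and Sgk1 fell (−0.39, SE 0.07, adjusted p = 0.00713). In dentate granule neurons Nr3c2 fell to 846, 668 and 643 CPM in Sevoflurane, against 1123, 1191 and 1160 CPM in Control libraries (−0.69, SE 0.10, adjusted p = 0.0107), Zbtb16 fell (−0.41, SE 0.09, adjusted p = 0.047) and Mt2 rose (0.63, SE 0.14, adjusted p = 0.0482).

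Among the tested classes, hypoxia and stress lists gave calls in endothelial cells, CA3 pyramidal neurons and inhibitory neurons. Of all genes, 2.3%, 0.414% and 7.16% were called there in either direction. In endothelial cells Ankrd37, a target of the hypoxia-inducible factor, fell to 5.20, 2.28 and 7.03 CPM in Sevoflurane, against 53.2, 46.5 and 36.7 CPM in Control libraries (log2 fold change −3.10, SE 0.46, edgeR adjusted p = 0.00196), the only 1 of 9 hypoxia genes to pass there. A single UMI gave 5.20 CPM in Sevoflurane 1 and 2.28 CPM in Sevoflurane 2 of this class, so the Sevoflurane levels of Ankrd37 rest on few UMIs. In inhibitory neurons the glycolysis regulator Pfkfb3 rose (0.54, SE 0.11, adjusted p = 0.0158), 1 of 12 hypoxia genes tested there. Of the dissociation stress list, 2 of 9 rose in endothelial cells: Nr4a1 (2.08, SE 0.35, adjusted p = 0.00319) and Jund (1.08, SE 0.27, adjusted p = 0.0389), the second of which lost its call without Sevoflurane 1, Control 1 or Control 3 (edgeR adjusted p of 0.104 to 0.18). In CA3 pyramidal neurons 1 of 9 rose (Btg2, 1.66, SE 0.26, adjusted p = 0.0486), and in inhibitory neurons 3 of 10 rose (Btg2, Fos and Fosb, with log2 fold changes of 1.04 to 1.85). The median of the dissociation stress list was 0.50 in endothelial cells, 0.51 in CA3 pyramidal neurons and 0.47 in inhibitory neurons. Over all genes the medians were 0.003, 0.01 and 0.01. Tested classes without a call had list medians of 0.45 (oligodendrocytes), 0.38 (CA1 pyramidal), 0.32 (neurons), 0.31 (dentate granule), 0.20 (microglia) and −0.12 (precursors). DESeq2 called 1 gene of the dissociation stress list in endothelial cells, CA3 pyramidal neurons and inhibitory neurons each, and 3 in neurons and in CA1 pyramidal neurons each. It called 0 genes of the hypoxia list in endothelial cells and inhibitory neurons, and 0 of the integrated stress response list in endothelial cells. Genes to which DESeq2 gave no adjusted p count as not called. Of the integrated stress response list (10 genes), the cystine transporter Slc7a11 fell in endothelial cells (0, 11.4 and 47.8 CPM against 93.1, 177 and 52.5 CPM, −1.93, SE 0.50, adjusted p = 0.0485, and 0.0719 to 0.219 without Sevoflurane 1, Sevoflurane 2, Control 1 or Control 2), and was lower in astrocytes as a description (163, 136 and 169 CPM against 195, 371 and 292 CPM, −0.88, SE 0.19, short of the threshold without Sevoflurane 2, Control 2 or Control 3). In oligodendrocytes, their precursors and microglia no gene of the 10 lists passed edgeR's test. Of their 127, 95 and 100 entries tested, 23, 16 and 10 had an unadjusted p under 0.05, where 13.5%, 11.7% and 9.27% of all genes did, and DESeq2 called 3, 0 and 0.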

How the data were processed

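Droplet 3′ single-cell RNA libraries of hippocampus (3 Sevoflurane, 3 Control) were used as the authors' deposited counts, whole-number UMI counts per gene and cell from Cell Ranger 6.1.1, per the file headers. The submitters' processing notes also name CASAVA 1.8 and Seurat. The genome build of the counting is not given in the sources used here. Gene positions are from GENCODE M21 and promoters from RefSeq, both GRCm38, matched by gene ID or symbol.

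Cells were required to have 500 UMIs, 300 genes and a mitochondrial share no higher than 20%, and the highest doublet scores (0.8% per 1000 cells) were removed. Scanpy 1.11.5 clustered the cells (2000 variable genes, 30 principal components, 15 neighbours, Leiden resolution 1). A cluster took a class name where its marker score reached 1, stood 0.3 above the next class and rested on 3 or more markers seen in 20% of its cells. Counts were summed per library and class with at least 20 cells in every library, and tested with edgeR 4.0.16 (R 4.3.3) quasi-likelihood fits, TMM factors, filterByExpr and BH adjustment at 0.05. DESeq2 1.42.0 was an alternative. The fits were tested on simulated data. Library totals were 54426522 to 70741809 UMIs, and UMI counts a gene limit precision. Comparisons set Sevoflurane against Control within a class. Other alternatives were RLE factors, no filter, a replicate block, doublets kept, the class of each cell taken by itself, resolution 2, a gene span trend removed, each library left out and, for neurons, clusters in equal numbers.

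The members and lists were chosen with earlier results of these data known. Genes named beside the members were up to 3 a direction in each list, by smallest adjusted p among those past the threshold, and the 3 genes most like each member. Igf1r is also given where it did not pass, chosen after its values were seen. One result of the PPAR alpha list is not reported here.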

Additional observations from a re-analysis of the deposited data

How the results depend on the processing

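The count of members past the threshold changed in few settings. With DESeq2 it was 1 in neurons and 1 in CA1 pyramidal neurons (Irs2 in both). With no filter on low counts it was 2 in oligodendrocytes (Arrdc2 and Ddit4), 1 in microglia (Ddit4) and 1 in CA1 pyramidal neurons (Irs2), 6 in astrocytes (Lpin1 added) and 3 in ependymal cells (Foxo3 added). With doublets kept it was 4 in astrocytes (Txnip lost). Over left-out libraries it ranged from 0 to 1 in microglia, from 0 to 1 in inhibitory neurons (1 without Sevoflurane 1, Irs2), from 2 to 6 in astrocytes and from 2 to 3 in ependymal cells. The cause was not tested. Same-numbered libraries showed little shared deviation (correlations of −0.196 to 0.0921). With 3 libraries a group, this cannot tell whether the replicate numbers pair them. With the replicate block the count was 5 in astrocytes, 3 in ependymal cells and 0 in every other class.

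Fold changes near 0 turned in sign. With the replicate block, the log2 fold change of Pdk4 in oligodendrocytes was −0.18 and of Angptl4 in endothelial cells −0.0035. With each cell's own class, it was −0.046 for Pdk4 and −0.0052 for Lpin1 in oligodendrocytes, 0.086 for Txnip in microglia, −0.29 for Foxo3 in endothelial cells, 0.087 for Pdk4 in dentate granule and 0.26 for Foxo1 in inhibitory neurons. At resolution 2 it was −0.013 for Lpin1 in oligodendrocytes, 0.14 for Txnip and 0.094 for Cpt1a in microglia. With doublets kept it was 0.14 for Txnip and 0.11 for Cpt1a in microglia and 0.084 for Foxo1 in inhibitory neurons. With equal neuron clusters it was −0.059 for Pdk4 and 0.0058 for Lpin1 in neurons, and with the span trend removed −0.042 for Txnip in CA1 pyramidal and −0.0041 for Arrdc2 in inhibitory neurons.

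Over left-out libraries the sign also turned for the following log2 fold changes. The range in neurons covered Pdk4 (−0.012 to 0.46), Lpin1 (−0.17 to 0.0035) and Foxo3 (−0.014 to 0.25). The range in oligodendrocytes covered Pdk4 (−0.71 to 0.52), Lpin1 (−0.066 to 0.20), Foxo1 (−0.14 to 0.016) and Foxo3 (−0.063 to 0.19). The range in oligodendrocyte precursors covered Irs2 (−0.10 to 0.097) and Foxo1 (−0.25 to 0.54). The range in microglia covered Irs2 (−0.10 to 0.32), Txnip (−0.27 to 0.084) and Cpt1a (−0.28 to 0.16). The range in endothelial cells covered Cpt1a (−0.0099 to 0.42) and Angptl4 (−0.20 to 0.35). The range in astrocytes covered Cpt1a (−0.24 to 0.066). The range in ependymal cells covered Cpt1a (−0.029 to 0.44) and Foxo1 (−0.082 to 0.26). The range in dentate granule neurons covered Pdk4 (−0.21 to 0.21), Lpin1 (−0.049 to 0.084) and Foxo3 (−0.034 to 0.30). The range in CA1 pyramidal neurons covered Txnip (−0.14 to 0.19) and Foxo3 (−0.090 to 0.15). The range in CA3 pyramidal neurons covered Ddit4 (−0.013 to 0.68). The range in inhibitory neurons covered Txnip (−0.29 to 0.021), Arrdc2 (−0.074 to 0.26) and Foxo1 (−0.14 to 0.053). For the difference of oligodendrocytes minus neurons it covered Pdk4 (−0.69 to 0.058), Lpin1 (−0.052 to 0.27), Txnip (−0.022 to 0.38), Cpt1a (−0.25 to 0.26) and Foxo3 (−0.10 to 0.058). For the difference of endothelial cells minus neurons it covered Pdk4 (−0.59 to 1.21), Lpin1 (−0.52 to 0.15), Txnip (−0.24 to 0.30), Ddit4 (−0.033 to 0.14), Angptl4 (−0.34 to 0.87) and Foxo3 (−0.16 to 0.050).

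Low counts limit Pdk4, Arrdc2 and Angptl4 outside the classes where they are abundant, and no difference can be read there. Class names were rebuilt from markers. Each group has 3 libraries, and Sevoflurane 1 differs from the others in sex. Scaling by library totals moved the median log2 difference of all genes by up to 0.144 (inhibitory neurons), so fold changes are relative to TMM scaling.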
